A study of Mus musculus with 6 samples.

Results

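Collagens and a small group of stromal matrix genes that includes Mfap4 were described across 6 mouse RNA libraries. The members were chosen by gene symbol: every row named as a collagen chain (Col, a number, a, a number), 44 in all, and the 6 further genes Mfap4, Tnc, Lum, Dcn, Fbn1 and Lox. Together they made up 50 of the 24346 rows of the files. Mfap4 and Tnc were picked from earlier results on the difference between the groups. That difference is therefore given for all members as a description, without p-values. Counts of members past a threshold stand beside the share of all rows only.

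RNA was sequenced from mouse tissue labelled as brain at embryonic day 17.5. The 3 libraries called DKO carry the genotype label miR-124a-1/2 DKO, a double knockout that removes 2 of the genes for the neuronal microRNA miR-124a. The 3 control libraries are labelled miR-124a-1+/-, so they too carry an altered miR-124a-1 allele, and no wild type enters the contrast. The labels number the brains but give no strain, sex, litter or batch, so errors measure the spread between these libraries only. Levels are in FPKM, in which fragments are counted per length of transcript and per depth of the library, a unit that allows levels of different genes to be compared.

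The row of Mir124a-1hg, from whose transcript miR-124a-1 is cut, measured 464 to 510 FPKM in the DKO libraries and 420 to 528 FPKM in the control libraries. The row 2610100L16Rik, which plays that role for miR-124a-2, measured 69.9 to 98.0 and 80.3 to 115 FPKM. Which bases were removed is not given in the labels, so neither row checks the genotype. Of 10 marker genes of the embryonic brain, 6 had a mean under 1 FPKM, and Emx1, a transcription factor of the cortex, was listed at 0 in all 6 libraries. The 5 rod photoreceptor markers summed to 11990 to 13055 FPKM in the DKO libraries and 12578 to 13619 FPKM in the control libraries. These levels go against the labelled tissue. The value columns of the 3 DKO libraries are headed CKO, which does not match their genotype label, and those of the controls are headed Control. The names DKO and control stand for libraries as labelled. Sums of FPKM were 402832 to 436299, and relative depths estimated from the steps between low values spanned 0.956 to 1.24. Short RNA rows made up 6.36% of the sum in control replicate 3 and 1.76% to 3.13% in the others.

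Collagens are secreted or membrane-bound proteins whose chains wind around each other into a stiff helix, and each collagen type is built from its own set of chains. Types I, III and V form the fibrils of skin, sclera and tendon, types II, IX and XI those of cartilage and of the vitreous body of the eye, and type IV the sheet of basement membranes beneath epithelia and around blood vessels. Type VI forms beaded filaments. Mfap4 and fibrillin (Fbn1) belong to elastic microfibrils, lumican (Lum) and decorin (Dcn) are proteoglycans that coat collagen fibrils, Lox cross-links collagen and elastin, and tenascin C (Tnc) is an adhesion-modulating glycoprotein of developing and glial tissue.

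The genes of type IV collagen lie in pairs that start next to each other and are read in opposite directions, and the stretches between the starts are shown because the pairs differed in how alike their chains were. In the GENCODE annotation of GRCm38, the assembly of mm10, the first exons of Col4a1 and Col4a2 on chromosome 8 overlap by 22 bases. Between Col4a4 and Col4a3 on chromosome 1 lie 71 bases, and between Col4a6 and Col4a5 on chromosome X lie 1308 bases. The stretches outside annotated exons, from RefSeq promoter windows of GRCm38.p6, are printed 5′ to 3′ on the strand of the first gene named. Capitals mark a GC box (GGGCGG) or a CCAAT box (CCAAT) on either strand.
Col4a4 to Col4a3, whole gap, minus strand, chr1:82586850-82586920: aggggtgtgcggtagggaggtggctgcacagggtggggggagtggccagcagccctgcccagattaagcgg
Col4a6 upstream, minus strand, chrX:141474077-141474326: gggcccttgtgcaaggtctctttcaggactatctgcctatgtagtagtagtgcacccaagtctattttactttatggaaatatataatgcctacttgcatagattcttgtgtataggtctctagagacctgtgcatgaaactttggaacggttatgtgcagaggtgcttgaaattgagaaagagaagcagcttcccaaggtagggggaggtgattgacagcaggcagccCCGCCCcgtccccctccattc
Col4a5 upstream, plus strand, chrX:141475169-141475384: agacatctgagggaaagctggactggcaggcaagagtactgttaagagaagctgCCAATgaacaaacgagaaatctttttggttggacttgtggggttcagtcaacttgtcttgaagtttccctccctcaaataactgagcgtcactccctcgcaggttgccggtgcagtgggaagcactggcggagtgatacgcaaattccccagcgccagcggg
The 71-base gap had a G+C content of 69.0%, against 47.6% upstream of Col4a6 and 52.3% upstream of Col4a5. It held neither box, nor TATAAA. The upstream stretch of Col4a6 held 1 GC box, which 32.9% of 27018 promoters also hold in a window of that length, and that of Col4a5 held 1 CCAAT box, which 31.5% hold. TATAAA was in neither. Promoter windows were matched for 37 of the 50 members.

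Of the 50 members, 34 had a mean of at least 1 FPKM over the 6 libraries, 31 of them collagens, and 48 were above 0 in every library. Type IX, type VI, type II and type IV chains and Col23a1 stood at the top, and the fibril proteoglycans of connective tissue at the bottom. The first 8 members held 73.2% of the summed level of all 50, and Col9a1 alone held 27.3%. The sum over the members was 0.0949% to 0.109% of all FPKM. For comparison, the median over the 13215 rows at or above that limit was 12.6 FPKM, a level that 9 members exceeded. The plot of levels by structural class shows every value.

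**Figure D1:**
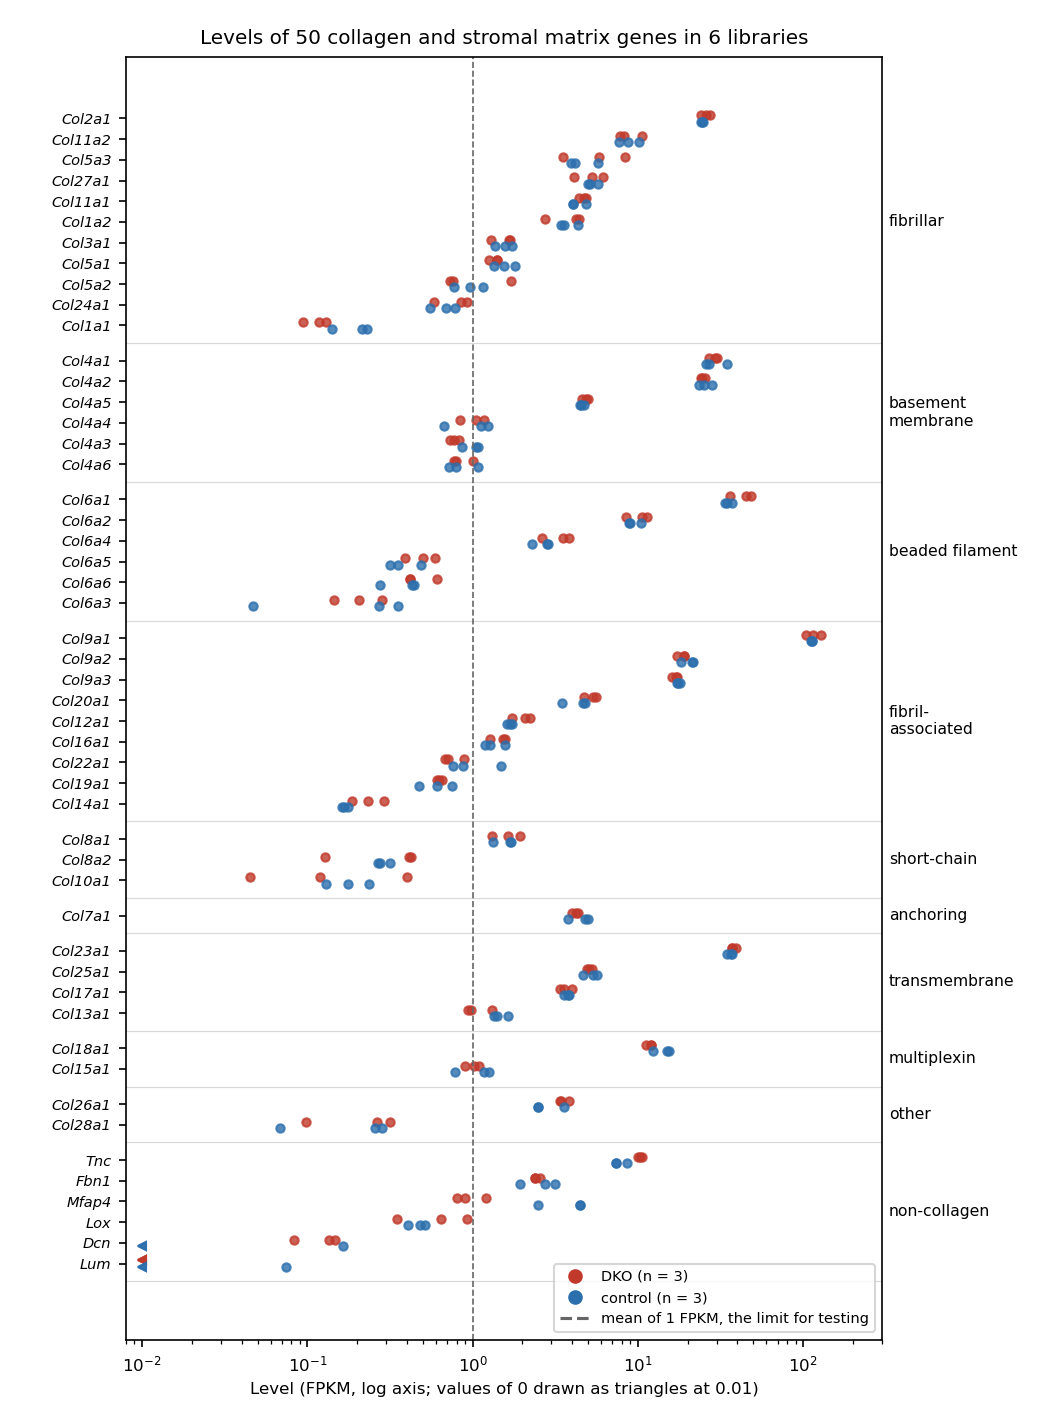
Levels of the 50 members in FPKM on a log axis, with 1 point per library (red DKO, blue control, n = 3 each) and genes grouped by structural class; values of 0 are triangles at 0.01. Col9a1 lies highest at 104 to 127 FPKM, 16 members have a mean under the dashed line at 1 FPKM, and Mfap4 is the row whose groups lie farthest apart among members above that line.

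Col9a1, a chain of the type IX collagen that decorates type II fibrils, measured 104, 114 and 127 FPKM in the DKO libraries and 113, 111 and 113 FPKM in the control libraries. Its lowest library lay above the highest library of every other member, and the groups overlapped. The partner chains were far lower: Col9a2 measured 18.9, 19.0 and 17.3 FPKM in DKO and 21.1, 21.5 and 18.2 FPKM in control. Col9a3 measured 17.2, 16.2 and 17.1 FPKM in DKO and 17.3, 18.0 and 17.6 FPKM in control, with the DKO values below all control values by a small step. Col9a1 exceeded Col9a2 by 5.16 to 7.34 times and Col9a3 by 6.08 to 7.46 times, whereas Col9a2 and Col9a3 differed by 1.02 to 1.22 times in a library. Type IX molecules are known to take 1 chain of each gene, and these RNA levels were unequal.

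Type II collagen, the fibril that type IX coats, was lower than Col9a1 in every library. Col2a1 measured 27.5, 24.1 and 26.0 FPKM in DKO and 24.7, 24.6 and 24.1 FPKM in control. Its fibril partners of type XI, which set the width of the fibril, were lower: Col11a2 measured 7.75, 8.25 and 10.5 FPKM in DKO and 7.65, 10.1 and 8.74 FPKM in control. Col11a1 lay between 4.03 and 4.89 FPKM. Of 4 cartilage markers, the matrix genes Acan and Comp lay at 0.0149 to 0.123 FPKM and at 0 to 0.192 FPKM, and Matn1 was listed at 0 in 5 of the 6 libraries. The fourth, the transcription factor Sox9, which other cell types including glia also express, lay at 2.86 to 4.98 FPKM.

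Type IV chains fell into an abundant pair and scarcer chains. Col4a1, with Col4a2 the chain of nearly all basement membranes, measured 27.0, 30.1 and 29.2 FPKM in DKO and 25.8, 27.1 and 34.8 FPKM in control. Col4a2 measured 24.0, 25.4 and 24.3 FPKM in DKO and 23.5, 25.1 and 27.97 FPKM in control. Control replicate 3 was the highest library for both, and the groups overlapped. Col4a5 was lower, at 4.48 to 4.999 FPKM. The chains that join it in specialised basement membranes lay near 1 FPKM. Col4a4 measured 1.06, 0.839 and 1.18 FPKM in DKO and 0.670, 1.13 and 1.24 FPKM in control. Col4a3 measured 0.829, 0.733 and 0.775 FPKM in DKO and 1.08, 1.048 and 0.863 FPKM in control, with every DKO library below every control library. Col4a6 measured 1.0005, 0.775 and 0.794 FPKM in DKO and 0.791, 1.07 and 0.724 FPKM in control, with overlap.

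Set beside the shared starts shown above, Col4a1 and Col4a2 lay within 1.08 to 1.24 times of each other in every library. Col4a3 was 0.658 to 1.61 times the level of Col4a4. Across the 1308-base gap Col4a5 was 4.43 to 6.29 times the level of Col4a6. These are 3 pairs only, and a relation to the distance was not tested.

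Type VI collagen was uneven. Col6a1 measured 35.9, 45.3 and 48.4 FPKM in DKO and 33.6, 36.9 and 34.7 FPKM in control. Col6a2 measured 8.45, 10.7 and 11.3 FPKM in DKO and 8.80, 10.4 and 8.95 FPKM in control. For both, DKO replicates 2 and 3 were the highest libraries and the groups overlapped. The ratio of Col6a1 to Col6a2 was steadier than either gene, at 4.25, 4.25 and 4.28 in DKO and 3.82, 3.55 and 3.88 in control, and these ratios did not overlap between the groups, a difference that was not tested. Col6a3, the usual partner of both, lay at 0.0468 to 0.353 FPKM, and of the chains that can take its place Col6a4 lay at 2.29 to 3.84 FPKM, Col6a5 at 0.318 to 0.596 FPKM and Col6a6 at 0.274 to 0.608 FPKM.

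**Figure D2:**
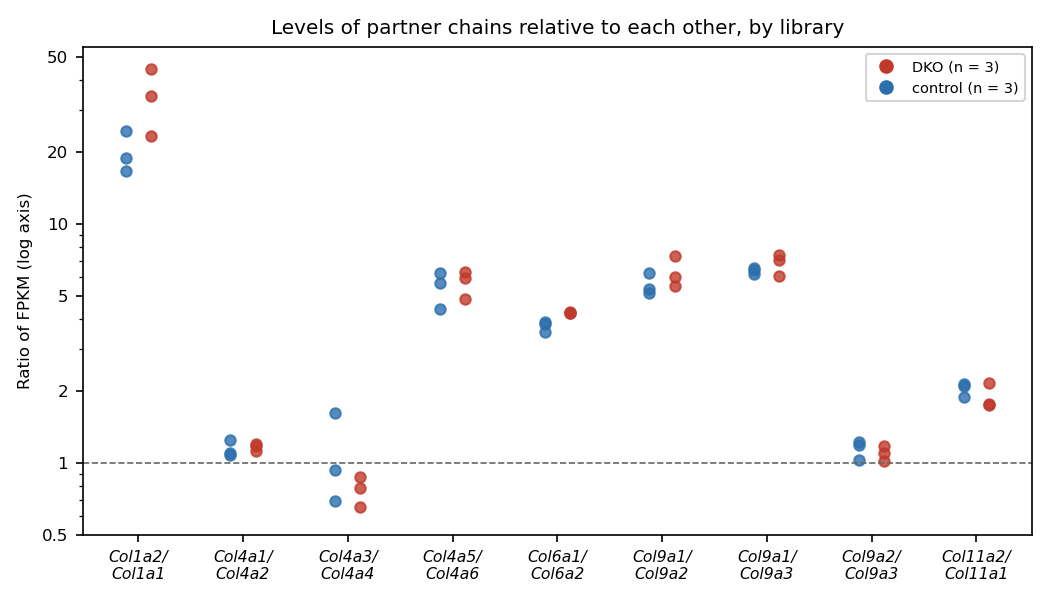
Ratio of the FPKM of partner chains in each library on a log axis (red DKO, blue control, n = 3 each, dashed line at a ratio of 1). Col4a1 and Col4a2, and Col9a2 and Col9a3, lie near 1, Col9a1 lies above both its partners, and the Col6a1 to Col6a2 ratio is 4.25 to 4.28 in DKO and 3.55 to 3.88 in control.

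The collagens of connective tissue were low. Col1a2, a chain of type I collagen, measured 2.75, 4.22 and 4.43 FPKM in DKO and 3.57, 3.44 and 4.36 FPKM in control. Col1a1, its partner, lay at 0.0947 to 0.130 FPKM in DKO and 0.140 to 0.231 FPKM in control. Col1a2 was 16.6 to 44.6 times the level of Col1a1, although type I collagen is known to hold more of the Col1a1 chain. Col3a1 lay at 1.30 to 1.74 FPKM and Col5a1 at 1.25 to 1.81 FPKM. Col5a2, the neighbour of Col3a1 on chromosome 1, measured 1.70, 0.730 and 0.762 FPKM in DKO and 0.773, 1.16 and 0.970 FPKM in control. DKO replicate 1 stood above the control range, and DKO replicates 2 and 3 lay just below it. Among the lowest rows, Dcn was listed at 0 in control replicates 1 and 2 and at 0.0832 to 0.164 FPKM in the other 4 libraries. After scaling by relative depth these 4 values were 1, 2, 2 and 2 steps of the smallest one (tolerance 0.05 steps). Lum was listed at 0 in 5 libraries and at 0.0739 FPKM in control replicate 1, and Lox measured 0.647, 0.349 and 0.927 FPKM in DKO and 0.516, 0.409 and 0.481 FPKM in control, with overlap.

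Collagens held in or near the cell membrane ranged widely in level. Col23a1, a collagen with a transmembrane segment, measured 37.2, 37.1 and 39.4 FPKM in DKO and 34.6, 37.0 and 36.7 FPKM in control, the DKO values lying just above the control values. Col25a1 at 4.67 to 5.64 FPKM and Col17a1, a collagen of epithelial attachment sites, at 3.37 to 3.99 FPKM are of the same class. Col18a1, the basement membrane collagen from which endostatin is cut, measured 11.1, 12.01 and 11.9 FPKM in DKO and 15.0, 15.4 and 12.4 FPKM in control. Its relative Col15a1 measured 0.901, 1.02 and 1.09 FPKM in DKO and 0.781, 1.26 and 1.17 FPKM in control.

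Neighbours in the order of levels were rarely separated. Among the 50 members ranked by mean, the ranges of adjacent members overlapped except between Col9a1 and Col6a1, between Col4a2 and Col9a2, and between Col9a3 and Col18a1. The members nearest to the limit of 1 FPKM were Col15a1, Col4a4 and Col5a2 above it (means 1.04, 1.02 and 1.02) and Col22a1, Col4a3 and Col4a6 below it (0.900, 0.888 and 0.860). Col22a1 measured 0.711, 0.682 and 0.884 FPKM in DKO and 1.49, 0.871 and 0.766 FPKM in control, with control replicate 1 above the rest.

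Between the groups, the collagens as a family lay close together, and Mfap4 stood apart from them. Of the 34 members tested, 17 had a log2 difference (DKO minus control, on the log2(FPKM + 1) scale, which understates changes of low genes) above 0 and 17 below. Their median was 0.0078, against -0.0016 over all 13215 rows tested. Between DKO and control 25 of the 34 differed by less than 0.2 and 1, Mfap4, by more than 0.5. None of the 34 passed an adjusted p of 0.05 in limma with Benjamini-Hochberg adjustment over all rows, where 0.0227% of all rows passed (0.0151% higher in DKO and 0.00757% lower). At an unadjusted limma p under 0.05 there were 4 of the 34, beside 7.88% of all rows. The groups did not overlap for 2 members higher in DKO (Tnc and Col23a1), beside 6.96% of all rows, and for 4 members lower in DKO (Mfap4, Col18a1, Col13a1 and Col9a3), beside 6.95%. These counts include the genes picked from this contrast and nothing is read from them. The 16 members below the limit were not tested. Among them, Col4a3 and Col1a1 were lower in every DKO library. Col14a1 was higher in every DKO library (0.186 to 0.289 against 0.161 to 0.176 FPKM). The share over all rows below the limit was not computed, and nothing is read from these genes.

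**Figure D3:**
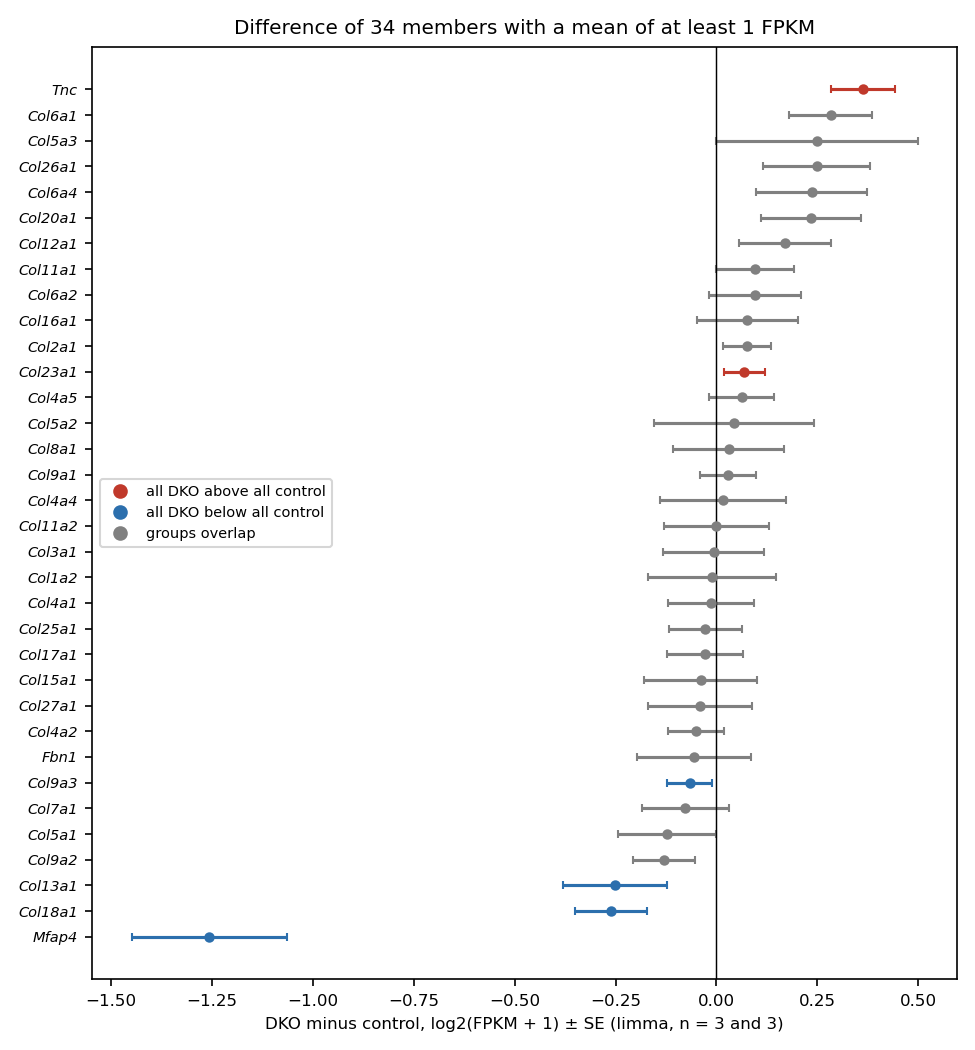
Log2 difference (DKO minus control, log2(FPKM + 1), n = 3 and 3) of the 34 members with a mean of at least 1 FPKM, with the standard error from limma; red and blue mark members whose groups do not overlap. Mfap4 lies at -1.26, and all other members lie between -0.26 and 0.36.

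Mfap4, a microfibril-associated glycoprotein that binds elastin, fibrillin and collagen (chromosome 11, 61485431 to 61488900), measured 1.21, 0.899 and 0.805 FPKM in the DKO libraries and 4.45, 4.45 and 2.49 FPKM in the control libraries. Every control library lay above every DKO library, and control replicate 3 lay between the other controls and the DKO libraries. The means were 0.973 ± 0.214 and 3.80 ± 1.13 FPKM (SD, n = 3 each), so the DKO mean was 0.256 times the control mean, and the log2 difference was -1.26 with SE 0.19. In bulk RNA fewer cells of a type and less RNA per cell cannot be told apart. Mfap4 shares 89 exonic bases with Mapk7 on the opposite strand, and Mapk7 had a log2 difference of 0.09. The 12 tested neighbours within 0.5 Mb had log2 differences of -0.04 to 0.09. Over all 6 libraries, the gap between the groups included, Mfap4 had the largest coefficient of variation of the 34 members, at 71.7%. It was followed by Col5a2 at 36.8% and Col5a3 at 34.2%. Mfap4 was picked from that gap, so nothing is read from its rank.

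Its microfibril partner Fbn1 did not show that pattern, although some other microfibril genes, given below, were lower in every DKO library. Fbn1 (fibrillin 1, the backbone of microfibrils) measured 2.37, 2.54 and 2.39 FPKM in DKO and 2.75, 3.14 and 1.92 FPKM in control, where control replicate 3 was the lowest of all 6 libraries. The log2 difference was -0.06 with SE 0.14. Fbn1 shares 2442 exonic bases, 20.1% of its exonic length, with Gm9913 on the opposite strand, which has no row. The part of Gm9913 in the Fbn1 values was not tested. Tnc was higher in DKO, at 10.3, 10.6 and 9.99 FPKM against 8.64, 7.41 and 7.33 FPKM, a log2 difference of 0.36 with SE 0.08 and no overlap. Tnc lies on chromosome 4 (63959785 to 64047015), and its 2 tested neighbours within 0.5 Mb had -0.06 and -0.0050.

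After Mfap4, the largest differences below 0 were those of Col18a1, Col13a1 and Col9a2. Col18a1 averaged 11.7 ± 0.489 against 14.3 ± 1.65 FPKM (SD, n = 3 each), with a log2 difference of -0.26 and SE 0.09. Col13a1, a transmembrane collagen of the neuromuscular junction, measured 0.980, 0.936 and 1.30 FPKM in DKO and 1.35, 1.64 and 1.40 FPKM in control (log2 difference -0.25, SE 0.13). For Col18a1, control replicate 3 lay close to the DKO range. For Col13a1, control replicates 1 and 3 lay close to DKO replicate 3, the highest DKO library. Col9a2 had -0.13 with SE 0.08, and its groups overlapped.

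Above 0, Tnc was followed by Col6a1, Col5a3 and Col26a1, whose groups all overlapped. Col6a1 averaged 43.2 ± 6.49 FPKM in DKO and 35.1 ± 1.69 FPKM in control (SD, n = 3 each), a log2 difference of 0.28 with SE 0.10 with DKO replicates 2 and 3 above the other 4 libraries. Col5a3, a minor chain of type V collagen, measured 5.79, 3.54 and 8.41 FPKM in DKO and 3.96, 5.76 and 4.16 FPKM in control, with a log2 difference of 0.25 and SE 0.25 that turned to -0.0041 without DKO replicate 3. Col26a1 measured 3.43, 3.37 and 3.82 FPKM in DKO and 3.59, 2.47 and 2.49 FPKM in control (log2 difference 0.25, SE 0.13). By class, all 3 tested type VI chains lay above 0 (median 0.24), both chains of types XV and XVIII below (median -0.15), and the other classes with several tested chains were mixed.

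**Figure D4:**
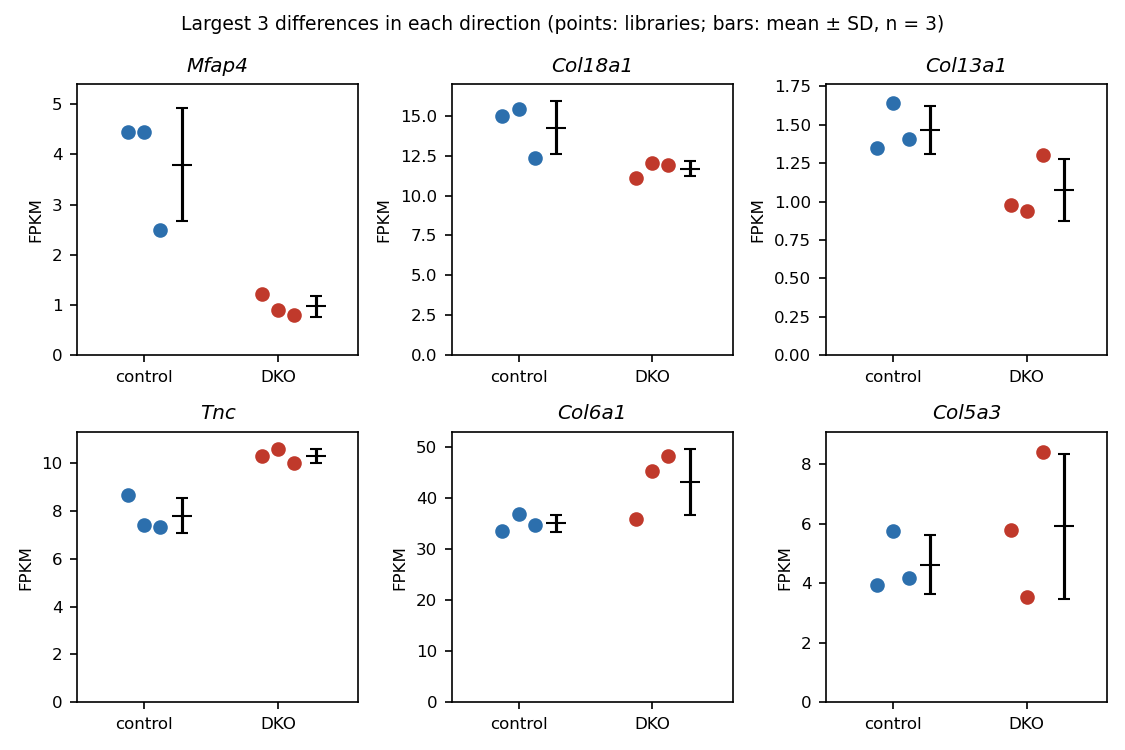
FPKM of the 3 members with the largest log2 difference below 0 (top row) and above 0 (bottom row) in each library, with mean ± SD (n = 3) beside the points. The groups of Mfap4, Col18a1, Col13a1 and Tnc do not overlap, whereas Col6a1 and Col5a3 overlap and Col5a3 ranges from 3.54 to 8.41 FPKM within DKO.

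Over the libraries the members did not all share the same highest or lowest library. DKO replicate 3 was the highest library for 15 of the 34 tested members, where it was highest for 16.2% of all tested rows. Control replicate 1 was the highest for 0 members and the lowest for 13, where the shares over all tested rows were 17.3% and 16.9%. Mueller glia markers, 6 genes all above 1 FPKM, summed to 1272 to 1458 FPKM in DKO and 1251 to 1362 FPKM in control. The sum was highest in DKO replicate 3, where Glul alone made up 1070 FPKM of it. Rlbp1, Glul and Abca8a were highest in that library, Slc1a3 in DKO replicate 1, and Aqp4 and Kcnj10 in control replicate 1. Their part in this was not tested.

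Of 12 chain pairs set for comparison, 7 had both chains at or above the limit, and Pearson's r was computed over the 6 libraries on the log2 scale. Col4a1 and Col4a2 had r = 0.92 (exact permutation p = 0.0181, adjusted over the 7 pairs 0.0632) and Spearman's rho = 0.94 (exact permutation p = 0.0167, adjusted 0.117). Col6a1 and Col6a2 had r = 0.87 (exact permutation p = 0.00833, adjusted 0.0583) and rho = 0.83 (exact permutation p = 0.0583, adjusted 0.204). Within the groups, taken as deviations from each group's mean, r was 0.96 and 0.97. Over the 4 libraries left without the 2 farthest from the median, a narrower range, r was 0.43 and 0.60.

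The remaining pairs were weaker or did not hold. Col3a1 and Col5a2, neighbours on chromosome 1, had r = -0.83 (exact permutation p = 0.0347, adjusted 0.081) and rho = -0.66 (exact permutation p = 0.175, adjusted 0.306), and r was 0.60 without the 2 farthest libraries. Mfap4 and Fbn1 had r = 0.46 (exact permutation p = 0.388, adjusted 0.538) and rho = 0.49 (exact permutation p = 0.356, adjusted 0.415). Its direction was not stable, at 0.86 for deviations from the group means and -0.95 without the 2 farthest libraries. Col5a1 with Col5a2, Col9a1 with Col9a3 and Col9a2 with Col9a3 had r of 0.36, -0.17 and 0.39 and rho of 0.66, -0.54 and 0.43 (exact permutation p from 0.175 to 0.717, adjusted 0.306 to 0.717). No pair passed 0.05 after adjustment.

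**Figure D5:**
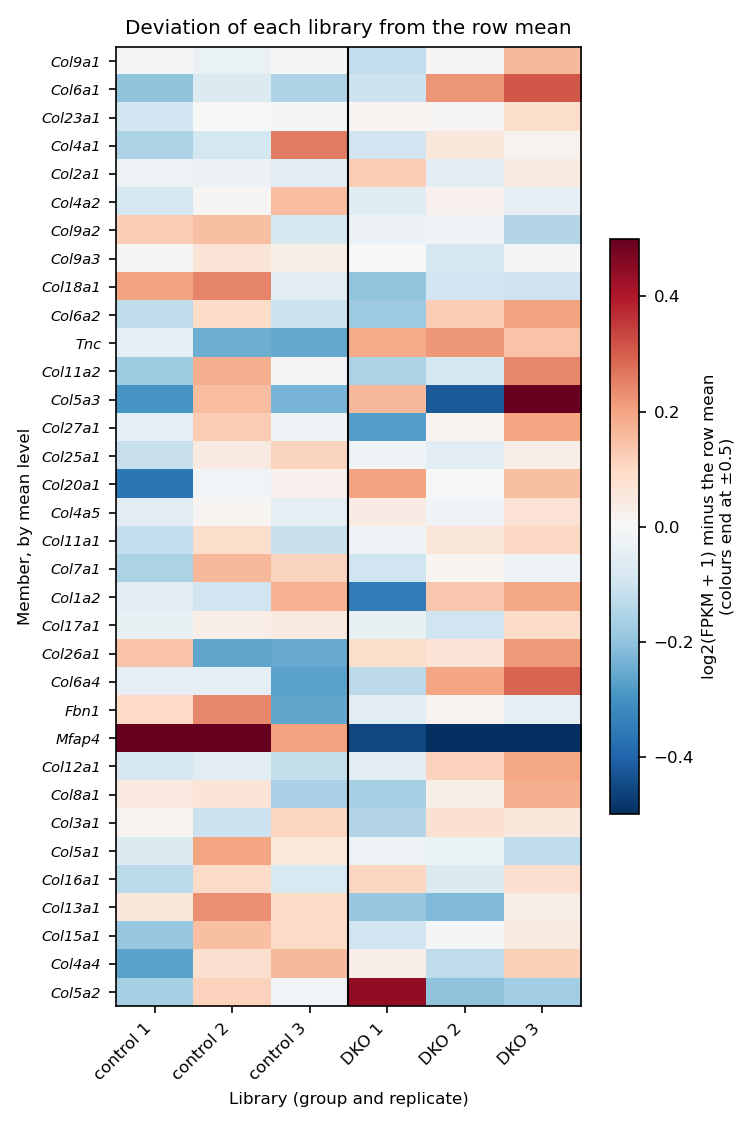
Deviation of each library from the row mean of log2(FPKM + 1) for the 34 tested members, ordered by mean level (red above, blue below, colours ending at ±0.5; control libraries left of the line, DKO right). Mfap4 is the row with a strong change of colour at the line, DKO replicate 3 is the highest library for 15 members, and control replicate 3 is highest for Col4a1 and Col4a2.

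Genes that process or surround the members were counted from lists of the same pathway, and none of the 56 tested passed in limma with Benjamini-Hochberg adjustment (6 had an unadjusted p under 0.05, beside 7.88% of all rows). In either direction, the groups did not overlap for 4 of 25 tested genes of collagen processing and 3 of 11 of the elastic microfibril. They did not overlap for 1 of 5 small leucine-rich proteoglycans, 1 of 11 basement membrane genes and 0 of 4 neural matrix genes. The share of all rows was 13.9%, and nothing is read from these counts. Of 25 tested genes of collagen processing, 9 had a log2 difference above 0 and 16 below (median -0.02). Sparc, a collagen-binding protein, measured 252 ± 4.27 against 268 ± 14.5 FPKM, and P4hb, a subunit of the prolyl hydroxylase of collagen, 87.5 ± 3.70 against 89.3 ± 2.19 FPKM (SD, n = 3 each, DKO first). The genes of smallest p were Loxl1, a relative of Lox that cross-links elastin (log2 difference -0.53, limma adjusted p = 0.492, Benjamini-Hochberg), and Bmp1, the protease that trims procollagen (-0.19, adjusted p = 0.592 in the same limma fit). Both were lower in every DKO library. Loxl1 measured 1.18, 1.19 and 0.781 FPKM in DKO and 2.38, 2.05 and 1.49 FPKM in control. Control replicate 3 was its lowest control library, as for Mfap4.

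Genes of the elastic microfibril, the structure that holds Mfap4, had 3 of 11 tested genes above 0 and 8 below (median -0.11). Fbln1, a fibulin of elastic fibres, measured 0.668, 0.641 and 0.8497 FPKM in DKO and 2.19, 2.198 and 0.699 FPKM in control. As for Mfap4, control replicates 1 and 2 were the highest libraries, but control replicate 3 lay within the DKO range (log2 difference -0.59, limma adjusted p = 0.618 with Benjamini-Hochberg adjustment). Ltbp1, which stores TGF-beta on microfibrils, had -0.27 (limma, Benjamini-Hochberg adjusted p = 0.604). The groups did not overlap for 3 of the 11 tested genes, all lower in DKO. Of all rows, 6.95% were lower in DKO without overlap, and 13.9% did not overlap in either direction. The 3 genes were Ltbp1, Ltbp3 (log2 difference -0.15) and Fbn2, a relative of Fbn1 (-0.23). For Ltbp3 and Fbn2 the limma adjusted p was 0.651 and 0.736 (Benjamini-Hochberg). Fbln2, with a mean under 1 FPKM, was also lower in every DKO library (0.351 to 0.773 against 0.796 to 0.816 FPKM). The abundant genes Mfap2 (15.9 ± 1.14 against 17.3 ± 1.84 FPKM) and Eln (elastin, 13.9 ± 0.972 against 13.3 ± 0.540 FPKM; SD, n = 3 each, DKO first) differed little.

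Of the small leucine-rich proteoglycans beside Lum and Dcn, 2 of 5 tested lay above 0 and 3 below (median -0.09), and Kera, the keratocan of cornea, was listed at 0 in all 6 libraries. Fmod, fibromodulin, measured 1.24, 0.923 and 1.10 FPKM in DKO and 2.495, 1.90 and 1.27 FPKM in control (log2 difference -0.45, limma adjusted p = 0.595 with Benjamini-Hochberg adjustment). Every DKO library of Fmod lay below every control library, and control replicate 3 was the lowest control, as for Mfap4. Prelp measured 12.5 ± 1.498 against 11.2 ± 0.335 FPKM and Bgn, biglycan, 4.61 ± 1.02 against 5.48 ± 0.539 FPKM (SD, n = 3 each, DKO first). Laminins and other basement membrane genes had 4 of 11 above 0 and 7 below (median -0.03). They were led by Agrn (agrin) at 41.7 ± 3.19 against 43.8 ± 3.78 FPKM, with Lamc1 at 9.17 ± 0.516 against 9.37 ± 0.350 FPKM. The genes of smallest p, Lamc3 and Lamb1, had 0.19 and 0.09 (limma adjusted p = 0.737 and 0.824, Benjamini-Hochberg). The neural matrix genes had 2 of 4 above 0 and 2 below (median 0.02), with Tnr, a relative of Tnc, at 18.3 ± 0.554 against 19.6 ± 1.35 FPKM, Ncan at 7.82 ± 0.374 against 7.38 ± 0.526 FPKM and Bcan at 3.11 ± 0.180 against 2.505 ± 0.578 FPKM (SD, n = 3 each, DKO first).

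Markers of cells that could hold these transcripts were read beside the members. Fibroblast or meningeal markers, 10 genes, summed to 25.8 to 30.5 FPKM in DKO and 29.5 to 36.6 FPKM in control. Igf2 was the largest term in each library, at 15.2 to 23.4 FPKM, and was highest in control replicate 3. All 4 tested genes of that list had a log2 difference below 0, and their groups overlapped. Pdgfra, Crabp2 and Igf2 had -0.12, -0.11 and -0.14, and Slc6a13 had -0.46 (limma adjusted p = 0.663, Benjamini-Hochberg). Slc6a13 measured 0.814, 1.59 and 1.20 FPKM in DKO and 2.41, 2.60 and 1.20 FPKM in control. The other 6 genes of the list had a mean under 1 FPKM and did not move together. Foxc1 (0.215 to 0.244 against 0.2995 to 0.583 FPKM) and Foxd1 (0.0945 to 0.175 against 0.224 to 0.461 FPKM) were lower in every DKO library. Dpt (0.0747 to 0.163 FPKM) and Aldh1a2 (0.0518 to 0.170 FPKM) were above 0 in every DKO library and listed at 0 in every control library. Twist1 was listed at 0 in 4 libraries and Twist2 in all 6. Lens markers, 7 genes with 3 under 1 FPKM, summed to 20.7 to 33.7 FPKM in DKO and to 30.05, 169.8 and 61.3 FPKM in control replicates 1, 2 and 3, with the crystallin Cryaa the largest term in each library. The crystallin Crygs was lower in every DKO library, at 2.66, 3.44 and 3.30 FPKM in DKO and 5.01, 20.1 and 9.96 FPKM in control. Its log2 difference was -1.44 (limma adjusted p = 0.418, Benjamini-Hochberg). The lowest control library was replicate 1 for Crygs and replicate 3 for Mfap4. Mip, a lens membrane channel, was also lower in every DKO library (0.204 to 0.605 against 0.642 to 0.977 FPKM), while the groups of the other 5 lens markers overlapped. Endothelial markers, 6 genes with all above 1 FPKM, summed to 104 to 112 FPKM in DKO and 106 to 114 FPKM in control, and Kdr was the largest term in each library. Of the 6, 5 had a log2 difference below 0 (median -0.18) and Kdr had 0.11. Cldn5 (18.9 to 21.2 against 21.9 to 24.6 FPKM) and Pecam1 (4.34 to 6.27 against 6.30 to 8.93 FPKM) were lower in every DKO library, with log2 differences of -0.22 and -0.35 (limma adjusted p = 0.507 and 0.650, Benjamini-Hochberg). Mural markers, 8 genes with 3 under 1 FPKM, summed to 38.0 to 47.7 and 37.9 to 44.4 FPKM. Ciliary epithelium markers, 4 genes with Otx1 under 1 FPKM, summed to 9.55 to 12.2 FPKM in DKO and 12.04 to 12.8 FPKM in control. Opcml and Wfdc1 (means 4.61 and 4.34 FPKM) were the largest terms in each library. How specific the listed genes are to that epithelium was not tested. All 3 tested genes of that list had a log2 difference below 0 (median -0.13), and their groups overlapped. Otx1 was lower in every DKO library (0.0407 to 0.101 against 0.198 to 0.433 FPKM). The part of these cells in the difference of Mfap4 was not tested.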

How the data were processed

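TruSeq stranded mRNA libraries were made from TRIzol RNA, per the labels' protocols. The values used are FPKM as the authors deposited them, 1 file per library. Cuffdiff 2.2.1, Bowtie2, TopHat2 2.1.1 and mm10 are the tools and the build, per the submitters' processing notes. The annotation, the counting strand and the scaling of the files are facts not given in the sources used here. FPKM carries no read totals, and precision is taken from 3 libraries per group. The standard errors given with log2 differences are those of limma, which draws each row's variance towards a trend over all tested rows.

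A row entered the fit if it averaged 1 FPKM or more. Its values, as log2(FPKM + 1), were fitted in R 4.3.3 by limma 3.58.1 (eBayes with a trend), which was checked on simulated data. Members and lists were chosen with earlier results of these data known. Named with all values are the 6 further genes, the 12 collagens of highest mean, the 4 largest differences on each side and the 3 collagens nearest to 1 FPKM on each side. From each matrix list the 2 highest and the 2 of smallest p are named, and other genes were chosen after their values were seen. Positions are from GENCODE M21. Python 3.11.15, pandas 2.3.3, NumPy 2.4.6, SciPy 1.17.1 and matplotlib 3.10.9 were used.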

Additional observations from a re-analysis of the deposited data

How the results depend on the processing

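Over 16 alternatives of the fit, 0 members passed in 15. Without control replicate 3 the count was 1, Mfap4 (log2 difference -1.47), and it was 0 there when the same 13215 rows were tested, an alternative chosen after seeing the data. Mfap4 was picked from this contrast, so nothing is read from that count. Leaving out single libraries gave 0 to 1 members, and the log2 difference of Mfap4 lay between -1.83 (pseudocount 0.1) and -1.15. The 3 rows called overall became 1 with eBayes without a trend, and 1 to 4 without single libraries (1 without control replicate 2). What caused these shifts was not tested. Of the 34 members 20 kept their sign in every alternative that tested them, and the other 14 had main differences of at most 0.25 in size. The genes of the matrix lists gave 0 calls in all 16. Members at or above the limit numbered 40 at 0.5 FPKM and 25 at 2 FPKM. Among pairs, r turned to -0.11 for Col9a2 with Col9a3 as deviations from the group means. Without the 2 farthest libraries it turned to -0.46 for that pair, to -0.95 for Mfap4 with Fbn1 and to 0.60 for Col3a1 with Col5a2. A block on replicate number gave 0 members and 2 rows overall. Libraries with the same number had deviations that correlated at 0.07, 0.0063 and 0.10, so the numbers are not taken as pairs. Without read totals, the counting error of levels near 0 is unknown, and Col1a1, Col14a1, Fbln2, Foxc1, Foxd1, Dpt, Aldh1a2, Mip and Otx1 are given as values only.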
